A study of Mus musculus with 9 samples.

Results

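A group of 10 genes of the JAK-STAT pathway was described in mouse macrophages: the Janus kinases Jak1, Jak2 and Tyk2, the transcription factors Stat3, Stat4 and Stat5a, and the feedback inhibitors Socs1, Socs2, Socs3 and Cish. They were taken by symbol, 10 of the 22524 genes in the count files, by a rule that names the genes and sets no threshold on a measured value. The 10 genes and the lists used below were chosen with earlier results of these data known. Shares over all genes are therefore given as context and not as a test. All 10 passed the filter on low counts.

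The study measured RNA by sequencing in bone marrow-derived macrophages, primary macrophages grown for 7 days from the bone marrow of C57BL/6 mice. It asked how lipopolysaccharide (LPS), a component of the bacterial outer membrane, changes gene expression, and what part serum response factor (SRF), a transcription factor, has in it. There were 3 groups of 3 libraries: untreated control cells of wild-type genotype, control cells of wild-type genotype given LPS for 6 h, and SRF-KO cells given LPS for 6 h. There was no untreated SRF-KO group, so a difference between the LPS groups cannot be told apart from a difference present before LPS. How the knockout was made, the ages and the sexes of the mice, and whether the replicates are separate animals or cultures were not stated in the labels. The p-values therefore measure the spread among these libraries, which may be technical.

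Cytokine receptors of this class have no kinase of their own. A bound JAK phosphorylates the receptor and then a STAT, which enters the nucleus and switches on genes. SOCS proteins are among those target genes, and they close the loop by binding the JAK or the receptor or by marking them for degradation. In macrophages LPS acts through a Toll-like receptor and not through a JAK, and JAK-STAT signalling follows from cytokines that the cells release, type I interferon, IL-6 and IL-10 among them.

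The start regions of Socs3 and Socs1 are shown because these genes had the largest fold rises of the 10 with LPS. The sequences are RefSeq's (GRCm38.p6), read 5′ to 3′ on the gene's strand, and only bases outside annotated exons are printed. Capitals in Socs3 mark the STAT palindrome TTCNNNGAA. Capitals in Socs1 mark 2 overlapping copies of an interferon response core, GAAA repeated after 2 other bases.
Socs3, chr11:117969452-117969616, minus strand, 250 to 86 bases before the start: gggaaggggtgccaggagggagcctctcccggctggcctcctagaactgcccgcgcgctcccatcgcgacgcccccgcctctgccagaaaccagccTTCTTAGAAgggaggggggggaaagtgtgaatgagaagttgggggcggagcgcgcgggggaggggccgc
Socs1, chr16:10785537-10785786, minus strand, the 250 bases before the start: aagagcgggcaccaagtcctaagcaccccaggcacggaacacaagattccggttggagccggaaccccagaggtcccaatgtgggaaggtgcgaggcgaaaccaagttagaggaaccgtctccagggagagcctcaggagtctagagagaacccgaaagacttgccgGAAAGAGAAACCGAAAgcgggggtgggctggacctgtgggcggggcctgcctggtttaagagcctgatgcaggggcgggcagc

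Motifs were searched on both strands in the 250 bases before each start. The palindrome lay 154 to 146 bases before the Socs3 start as TTCTTAGAA, and 7.02% of 32851 RefSeq mouse promoters held such a palindrome. In Socs1 the copies GAAAGAGAAA and GAAACCGAAA lay 83 to 74 and 77 to 68 bases before the start, and 2.98% of promoters held this core. RefSeq promoters matched 9 of the 10 genes, with 11 start sites, and Socs2 was not among them. Apart from Socs3 and Socs1, the second start of Stat4 held GAAAGTGAAA, 97 to 88 bases before it. The second start of Stat5a held an NF-kB consensus, GGGGCACCCC, 234 to 225 bases before it (7.25% of promoters hold one). The CArG box, the motif that SRF binds, was in none of the 11 windows and in 1.47% of all promoters. These are letter matches only, and no binding was measured.

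Libraries held 15321839 to 24912173 counts. Levels are given as CPM (counts scaled to a common library size) after TMM scaling, a correction for library composition. Srf, the targeted gene, was at 39.1 to 47.2 CPM in untreated control, 55.2 to 59.5 in LPS control and 0.680 to 1.53 in LPS SRF-KO libraries. All 8 macrophage markers were detected, with summed levels of 16700 to 20400 CPM over the 9 libraries. Y-linked Uty, Ddx3y, Kdm5d and Eif2s3y summed to 115 to 146 CPM in the 6 control libraries and to 0.0387 to 0.135 in the LPS SRF-KO libraries. Genotype and sex therefore cannot be told apart in any comparison with SRF-KO.

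With LPS, all 10 genes rose in control cells. Socs3 rose most, 164-fold, followed by Socs1 at 26.6-fold and Jak2 at 18.1-fold, and Jak1 least, 1.67-fold. The groups of 3 libraries did not overlap for any of the 10. Of 11560 genes tested, 81.7% were called, 40.8% higher, and 82.1% had non-overlapping groups. Of the 10, 9 rose at least 2-fold, compared with 15.6% of all genes. Since the 10 were chosen with earlier results of these data known, this contrast is not a test. Over 13 alternative settings Stat4 and Socs2 reached as low as 0.96 and 0.71 on the log2 scale, below 2-fold. The median log2 fold change was 2.00 over the 10 genes and -0.02 over all genes. A gene was called at an adjusted p below 0.05 (edgeR, quasi-likelihood F test, Benjamini-Hochberg over all genes).

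In SRF-KO cells with LPS compared with control cells with LPS, 7 of the 10 were lower (37.9% of all genes were), 2 were higher (39.1% of all genes) and Stat4 was not called. Tyk2, Stat5a, Socs3 and Stat3 fell at least 2-fold, which 11.2% of all genes did. Over 13 alternative settings their smallest falls were -1.18, -0.96, -0.68 and -0.66 on the log2 scale. Only Tyk2 therefore stayed at least 2-fold lower in every setting. Cish, 7.94-fold higher, and Socs2, 1.82-fold higher, went the other way. Groups did not overlap for 9 of the 10, and for 78.0% of all genes. The median log2 fold change was -0.48 for the 10 genes and 0.01 for all genes. When counts were scaled by library totals alone, the median of all genes shifted to -0.57 in the LPS comparison and to 0.37 in the SRF-KO comparison. Jak1 was then -0.04 (adjusted p = 0.282, edgeR) in SRF-KO cells, so 6 genes were lower.

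**Figure D1:**
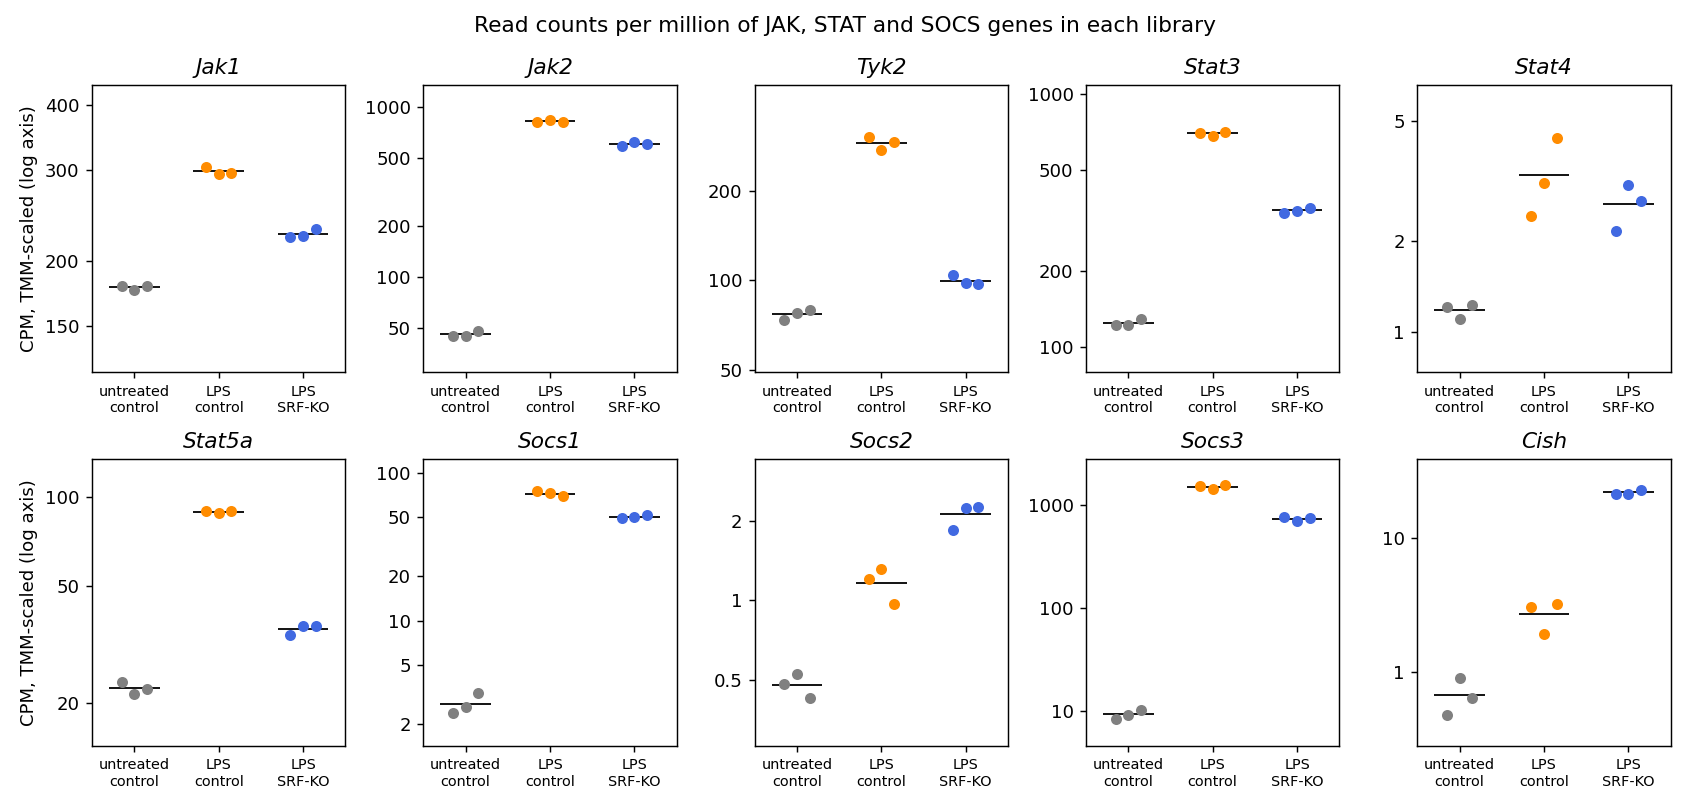
TMM-scaled CPM of each gene on a log axis of its own, 1 point per library and a line at the mean of 3 libraries, for the 3 groups. All 10 genes sit above the untreated level in both LPS groups, and Cish and Socs2 are the genes whose LPS SRF-KO points lie above the LPS control points.

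Of the kinases, Jak2 (ENSMUSG00000024789, chr19:29251828-29313080, plus strand) serves receptors such as those for interferon gamma and for GM-CSF. Its level was 44.5, 44.4 and 48.2 CPM in untreated control, 818, 837 and 823 in LPS control, and 588, 626 and 609.5 in LPS SRF-KO libraries. LPS control libraries were highest and untreated ones lowest, with no overlap between any groups. The log2 fold change was 4.18 ± 0.05 (SE, 3 against 3 libraries) with LPS (adjusted p = 4.5e-42, edgeR). In SRF-KO cells it fell by 0.44 ± 0.04 (adjusted p = 2.03e-13, edgeR), or by 0.09 with library totals (adjusted p = 0.0301, edgeR).

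Tyk2 (ENSMUSG00000032175, chr9:21104068-21131243, minus strand) serves the type I interferon, IL-10 and IL-12 receptors. Its level was 73.7, 77.4 and 79.6 CPM in untreated control, 302, 274 and 292 in LPS control, and 104, 97.4 and 96.7 in LPS SRF-KO libraries. The LPS SRF-KO libraries lay close above the untreated ones and far below the LPS control ones. Tyk2 rose by 1.91 ± 0.04 (SE) on the log2 scale with LPS (adjusted p = 2.59e-31, edgeR). It fell by 1.54 ± 0.04 in SRF-KO cells (adjusted p = 1.88e-28, edgeR), the largest fall of the 10 genes. Its exons share 554 bases with the antisense gene 1700084C06Rik, which is not among the genes in the count files.

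Jak1 (ENSMUSG00000028530, chr4:101152367-101265282, minus strand) pairs with another JAK at most interferon and interleukin receptors. Its level was 179.6, 176 and 179.7 CPM in untreated control, 304, 294 and 296 in LPS control, and 223, 224 and 231 in LPS SRF-KO libraries. These ranges were narrow and did not overlap. Jak1 rose by 0.74 ± 0.04 (SE) on the log2 scale with LPS (adjusted p = 3.12e-20, edgeR), and by 0.19 with library totals. The fall of 0.40 ± 0.04 in SRF-KO cells (adjusted p = 2.41e-12, edgeR) is the call that library totals ended.

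Levels of different genes were compared per kilobase of annotated exon. The 4 JAK genes, Jak3 included, summed to 51.1 ± 1.44 CPM per kb (SD, n = 3) in untreated control, 258 ± 1.401 in LPS control and 170.5 ± 3.30 in LPS SRF-KO cells. Jak1 was the leading kinase without LPS, at 48.3% ± 1.24 of that sum, and Jak2 followed Tyk2 (21.9% ± 0.472) at 17.8% ± 0.331. With LPS, Jak2 led at 63.6% ± 1.08 in control and 70.85% ± 0.849 in SRF-KO cells. Tyk2 made up 16.3% ± 0.716 of the sum in LPS control and 8.51% ± 0.518 in LPS SRF-KO cells.

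Stat3 (ENSMUSG00000004040, chr11:100885098-100939540, minus strand) carries IL-6 and IL-10 signals. Its level was 121.9, 122.3 and 129.3 CPM in untreated control, 702, 687 and 713 in LPS control, and 340.4, 345 and 356 in LPS SRF-KO libraries. The 3 groups were fully apart. The log2 fold change was 2.49 ± 0.04 (SE) with LPS (adjusted p = 1.21e-36, edgeR). In SRF-KO cells Stat3 fell by 1.01 ± 0.04 (adjusted p = 1.36e-24, edgeR), or by 0.66 with library totals.

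Stat5a (ENSMUSG00000004043, chr11:100859351-100885169, plus strand) carries signals of GM-CSF, IL-3 and related cytokines. Its level was 23.5, 21.6 and 22.3 CPM in untreated control, 89.75, 88.1 and 89.75 in LPS control, and 34.1, 36.6 and 36.5 in LPS SRF-KO libraries. As for Tyk2, the LPS SRF-KO libraries were nearer to the untreated ones. Stat5a rose by 1.99 ± 0.06 (SE) on the log2 scale with LPS (adjusted p = 1.16e-28, edgeR) and fell by 1.32 ± 0.05 in SRF-KO cells (adjusted p = 1.13e-23, edgeR). Stat5a and Stat3 are neighbours on opposite strands and share 72 exon bases. Of the 50-base words of Stat5a exons, 8.21% are also in its paralog Stat5b, and such reads can be lost or misplaced in counting.

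Stat4 (ENSMUSG00000062939, chr1:51987148-52107189, plus strand) carries IL-12 signals and is best known from T and NK cells. It was low, at 1.21, 1.10 and 1.23 CPM in untreated control, 2.42, 3.11 and 4.40 in LPS control, and 2.16, 3.06 and 2.72 in LPS SRF-KO libraries, on 23 to 79 counts each. Both LPS groups lay above the untreated one and overlapped each other. Stat4 rose by 1.51 ± 0.24 (SE) on the log2 scale with LPS (adjusted p = 3.2e-07, edgeR). The difference between the LPS groups was -0.34 ± 0.20 (adjusted p = 0.114, edgeR) and ranged from -0.50 to 0.02 over 13 alternative settings, with adjusted p from 0.0277 to 0.939. It was called without LPS control replicate 1 (-0.50, adjusted p = 0.0277, edgeR) and without LPS SRF-KO replicate 2 (-0.48, adjusted p = 0.0495, edgeR). The value was -0.07 without LPS control replicate 3 (adjusted p = 0.799, edgeR).

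The 9 T and NK cell markers summed to 3.58 to 5.89 CPM in untreated control, 4.75 to 6.98 in LPS control and 0.851 to 1.13 in LPS SRF-KO libraries. Cd3d, Cd3g, Nkg7 and Ncr1 were at 0 in all 9 libraries, and Cd3e in both LPS groups. Only Cd4 and Lck passed the filter on low counts, and the part of such cells in the Stat4 values was not tested. In bulk samples, fewer cells of a type and less RNA per cell cannot be told apart. Exons of Stat4 also share 1033 bases with Gm28177 on the same strand, which is not among the genes in the count files.

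**Figure D2:**
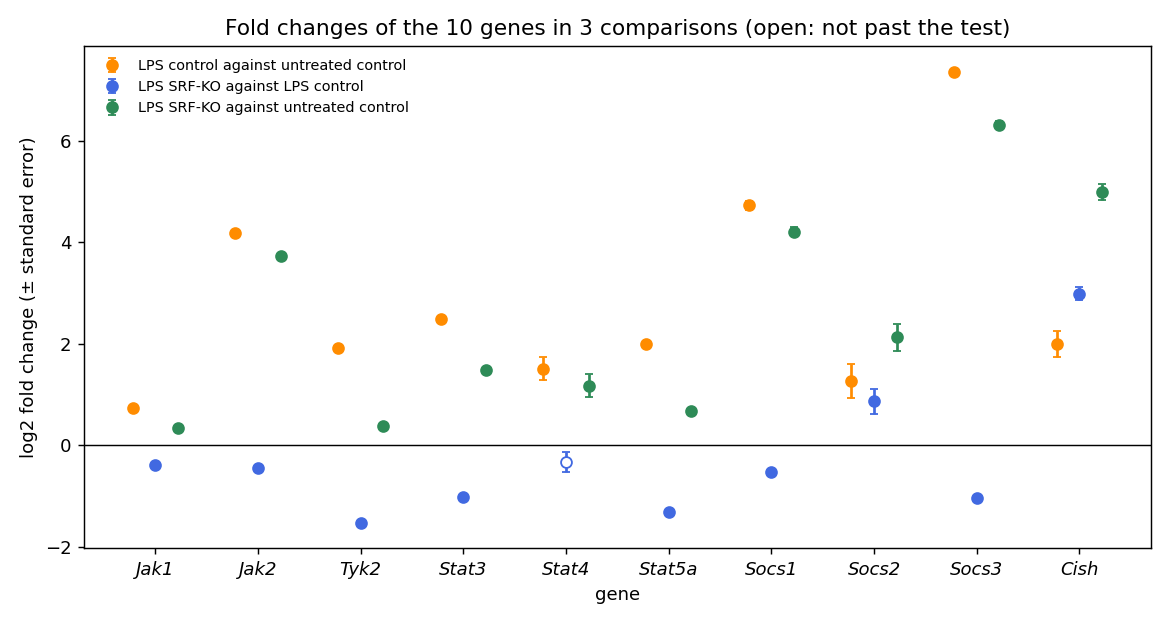
Log2 fold changes with standard errors for the 10 genes in the 3 comparisons, each of 3 against 3 libraries, with the untreated and LPS groups shared between comparisons. The open point is Stat4 between the LPS groups (-0.34), and Cish and Socs2 have positive values in each comparison.

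Socs3 (ENSMUSG00000053113, chr11:117966079-117970047, minus strand) restrains receptors that use the IL-6 signal chain and the G-CSF receptor. Its level was 8.30, 9.05 and 10.3 CPM in untreated control, 1535, 1427 and 1557 in LPS control, and 760.5, 697 and 745 in LPS SRF-KO libraries. Every LPS library was far above every untreated one, and the LPS groups did not overlap. The log2 fold change was 7.36 ± 0.06 (SE) with LPS (adjusted p = 4.39e-45, edgeR), the 9th smallest p of 11560 genes. In SRF-KO cells Socs3 fell by 1.04 ± 0.04 (adjusted p = 2.68e-23, edgeR), or by 0.68 with library totals.

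Socs1 (ENSMUSG00000038037, chr16:10782240-10785536, minus strand) inhibits JAKs directly and is the main brake on interferon signals. Its level was 2.36, 2.59 and 3.26 CPM in untreated control, 74.9, 73.1 and 69.4 in LPS control, and 49.7, 50.3 and 51.5 in LPS SRF-KO libraries. The order of the groups was that of Socs3 and Jak2, with no overlap. Socs1 rose by 4.73 ± 0.09 (SE) on the log2 scale with LPS (adjusted p = 6.5e-35, edgeR). It fell by 0.52 ± 0.05 in SRF-KO cells (adjusted p = 3.12e-11, edgeR), or by 0.16 with library totals (adjusted p = 0.00516, edgeR).

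Cish (ENSMUSG00000032578, chr9:107296026-107302784, plus strand) is a STAT5-induced inhibitor of STAT5 signalling. Its level was 0.483, 0.910 and 0.641 CPM in untreated control, 3.06, 1.94 and 3.23 in LPS control, and 21.2, 21.4 and 22.96 in LPS SRF-KO libraries. The counts behind these were 10, 19 and 12, then 38, 28 and 50, then 470, 554 and 405. All LPS SRF-KO libraries were above all others. Cish rose by 2.00 ± 0.26 (SE) on the log2 scale with LPS (adjusted p = 6.59e-09, edgeR), and was 2.99 ± 0.13 higher again in SRF-KO cells (adjusted p = 2.48e-22, edgeR). Over 13 alternatives the second value ranged from 2.79 to 3.35. Its exons share 479 bases with antisense Gm17041 and 261 with Gm17040, neither among the genes in the count files, and whether counting used the strand is not stated.

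Socs2 (ENSMUSG00000020027, chr10:95385362-95417180, minus strand) is the brake on growth hormone signals. It was the lowest of the 10 per length in untreated and LPS cells, at 0.483, 0.527 and 0.427 CPM in untreated control, 1.21, 1.31 and 0.970 in LPS control, and 1.85, 2.24 and 2.27 in LPS SRF-KO libraries. As for Cish, untreated libraries were lowest and LPS SRF-KO libraries highest, without overlap, but on 8 to 58 counts each. Socs2 rose by 1.26 ± 0.34 (SE) on the log2 scale with LPS (adjusted p = 0.000863, edgeR), and by 0.71 with library totals (adjusted p = 0.0461, edgeR). It was 0.87 ± 0.24 higher in SRF-KO cells (adjusted p = 0.00154, edgeR).

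The 8 SOCS genes summed to 19.7 ± 0.571 CPM per kb (SD, n = 3) in untreated control, 561 ± 23.9 in LPS control and 287.8 ± 11.5 in LPS SRF-KO cells. Socs3 held 16.1% ± 1.74 of that sum without LPS, less than Socs4 at 25.7% ± 0.851. It held 92.8% ± 0.377 in LPS control and 88.2% ± 0.430 in LPS SRF-KO cells. Cish held 0.0757% ± 0.0167 and 1.18% ± 0.0645 in these 2 groups.

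**Figure D3:**
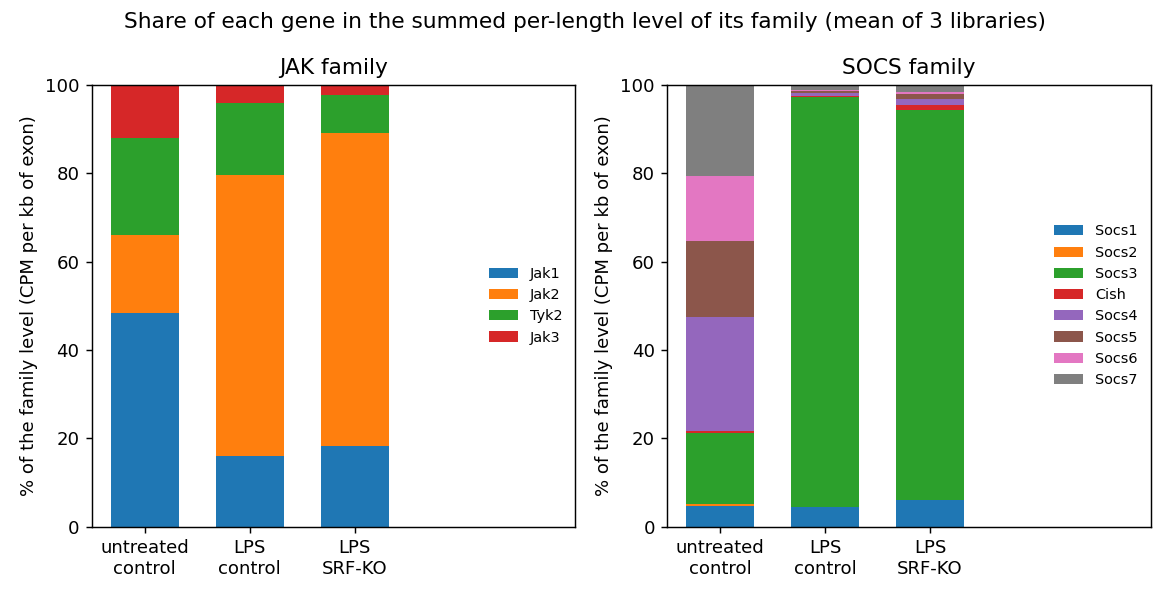
Share in percent of each gene in the summed CPM per kb of exon of its family, as means of 3 libraries per group. Jak2 takes the largest part of the JAK sum in both LPS groups (63.6% and 70.85%), and Socs3 nearly fills the SOCS sum there (92.8% and 88.2%).

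Across all 10 genes per length, Jak1 was highest in untreated control at 24.7 ± 0.276 CPM per kb (SD, n = 3), followed by Stat3 at 13.1 ± 0.438, Tyk2 at 11.2, Jak2 at 9.09, Socs3 at 3.18 ± 0.340 and Stat5a at 3.15 ± 0.138. Socs3 and Stat5a did not differ there beyond their spread. That holds for the summed exon length only, since with the longest transcript as the length Stat5a was at 5.67 and Socs3 at 3.61. In LPS control, Socs3 was highest at 521 ± 24.1, followed by Jak2 at 164, Stat3 at 73.5, Tyk2 at 42.2 ± 2.07 and Jak1 at 41.2 ± 0.712. Tyk2 and Jak1 lay within their spread. With the longest transcript their order was reversed, at 59.95 and 60.75. In LPS SRF-KO cells the order was Socs3 at 254 ± 11.4, Jak2 at 121, Stat3 at 36.5, Jak1 at 31.3, Socs1 at 17.4 and Tyk2 at 14.5. With the longest transcript Tyk2, at 20.6, was above Socs1, still at 17.4. Cish was at 3.41, Stat4 at 0.684 and Socs2 at 0.222.

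The comparison of LPS SRF-KO against untreated control shares its libraries with the others. All 10 genes were higher there (39.4% of all genes were, and 40.1% were lower) and no groups overlapped (79.5% of all genes). Of the 10, 7 were at least 2-fold higher, which 13.4% of all genes were. Among these, Stat4 reached as low as 0.98 on the log2 scale over 13 alternative settings, below 2-fold. Socs3 was 80-fold higher, Cish 31.8-fold, Socs1 18.5-fold and Jak2 13.3-fold. Jak1 and Tyk2 were nearest to the untreated level, 1.27-fold and 1.30-fold higher (log2 0.34 ± 0.04 and 0.37 ± 0.05, SE; adjusted p = 1.5e-10 and 2.78e-09, edgeR). With library totals these were 0.15 and 0.18 on the log2 scale, each still called.

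Genes with the pattern most like each SOCS gene were found by the root mean square difference of mean-centred log2 CPM over the 9 libraries. For Socs1 these were Sod2 (0.13) and Tnfaip3 (0.213), a mitochondrial superoxide dismutase and an inhibitor of NF-kB signalling. For Socs3 they were Ptges (0.195), which makes prostaglandin E, and Saa3 (0.208), an acute-phase protein. For Socs2 they were Homer1 (0.132) and Clec4a2 (0.133), and for Cish Col4a1 (0.307) and Tpbpa (0.31). The values for Cish were the largest. The measure is not scaled to the size of a gene's change or to its counting noise, so values of different SOCS genes are not directly comparable. Tpbpa was near the floor in control cells, at 0.0498 CPM untreated and 0.540 with LPS, and at 6.52 in LPS SRF-KO cells.

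Among the ligands that signal through JAKs, 13 of 20 passed the filter on low counts, and all 13 rose with LPS in control cells (40.8% of all genes did). With library totals 12 rose (2428 of 11560 genes did), and Osm turned from 0.47 to -0.08 on the log2 scale (adjusted p = 0.446, edgeR). The median of their log2 fold changes was 3.80, and 2.84 with Csf3 and Il23a, which had no counts in untreated cells, at their lower bounds. Mean levels of Il12b, a subunit of IL-12 and IL-23, were 0.196, 245.5 and 229 CPM in untreated control, LPS control and LPS SRF-KO cells. Il27 was at 1.24, 84.8 and 13.6. In SRF-KO cells 5 ligands were higher, 7 lower and 1 not called (39.1% of all genes were higher and 37.9% lower). Il6 (88.8 CPM in LPS control, 449 in LPS SRF-KO; log2 2.34) and Osm (9.09 and 87.3; log2 3.27) were higher. Il15 was lower (113.7 and 9.86; log2 -3.52). With library totals the call for Il12b turned from -0.10 to 0.26.

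Of the receptor chains, 25 of 28 passed that filter, and 17 rose and 6 fell with LPS (40.8% and 40.8% of all genes). In SRF-KO cells 9 were higher and 16 lower than in LPS control (39.1% and 37.9% of all genes). Il4ra, a chain of the IL-4 receptor, averaged 200.2 CPM in untreated control, 1568 in LPS control and 304 in LPS SRF-KO cells. Csf3r, the G-CSF receptor, was at 49.1, 246 and 17.99, and Il15ra at 4.87, 76.3 and 8.78. Csf2rb, the shared chain of the GM-CSF and IL-3 receptors, was higher in SRF-KO cells, at 185, 836 and 1453 CPM, though reads may be split with its close copy Csf2rb2. With library totals 14 chains rose and 10 fell with LPS (2428 and 7835 of 11560 genes).

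The other family members did not all move alike. Jak3 was at 32.8, 57.6 and 20.9 CPM in the 3 groups (log2 0.81 with LPS and -1.46 in SRF-KO cells). Stat2 was at 327, 1228 and 281.5, so it rose with LPS and fell in SRF-KO cells (log2 -2.12). Stat5b fell in SRF-KO cells (log2 -0.99), and its rise of 0.62 with LPS was not called with library totals (0.07). Stat6 fell by 0.25 with LPS and was 0.22 higher in SRF-KO cells. Of Socs4, Socs5, Socs6 and Socs7, 3 fell with LPS and Socs7 rose by 0.60, a call lost with library totals (0.05). In SRF-KO cells Socs5 was 0.29 higher, Socs6 and Socs7 fell by 0.24 and 0.51, and Socs4 was not called (-0.12). Without LPS SRF-KO replicate 3, only 1 of the 4 was lower. With library totals Socs4 and Socs6 changed sign (0.24 and 0.11).

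Of 11 other brakes on the pathway, 8 rose and 1 fell with LPS (40.8% and 40.8% of all genes). In SRF-KO cells 2 brakes were higher and 7 lower (39.1% and 37.9% of all genes). With library totals 6 rose and 4 fell with LPS (2428 and 7835 of 11560 genes). Without untreated control replicate 1 or LPS control replicate 2, 2 fell with LPS. Without LPS control replicate 1, 2 or 3, 1 was higher in SRF-KO cells. Usp18, which restrains the interferon receptor, averaged 91.4, 1031 and 171 CPM in untreated control, LPS control and LPS SRF-KO cells. The phosphatases Ptpn1 (182, 454 and 277) and Ptpn6 (399, 760.4 and 401) had the same order of LPS control above LPS SRF-KO. Ptprc rose with LPS (log2 1.42), and its difference in SRF-KO cells was -0.18, or 0.17 with library totals. With library totals 5 brakes were higher and 5 lower in SRF-KO cells (7059 and 2434 of 11560 genes).

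All 11 STAT3 target genes tested rose with LPS (over all genes 40.8% rose and 40.8% fell). But with library totals 9 were higher and 2, Etv3 (log2 0.12, then -0.43) and Bcl6 (0.38, then -0.17), were lower. Over all 11560 genes 2428 were then higher and 7835 lower. Cebpd was not analysed here. In SRF-KO cells 9 STAT3 targets were lower and 2 higher (37.9% and 39.1% of all genes), with a median log2 fold change of -1.03. The kinase gene Pim1, which is also on the STAT5 list, was at 24.1, 270.0 and 132.5 CPM, and Sbno2, a gene of the IL-10 response, at 145, 546 and 201. Of 8 STAT5 target genes, 7 rose and 1 fell with LPS (40.8% and 40.8% of all genes). With library totals 4 rose and 2 fell (2428 and 7835 of 11560 genes). In SRF-KO cells 6 STAT5 targets were lower and 2 higher (37.9% and 39.1% of all genes). Their median log2 fold change was -1.54, and that of all genes 0.01. Ccnd2, the cyclin D2 gene, averaged 48.0, 453 and 39.1 CPM, and Il2ra, a chain of the IL-2 receptor, 0.200, 11.3 and 0.951. The 2 higher on this list were Osm (log2 3.27) and Lif (log2 5.62, on 13 counts over the LPS control group). Cish, not on the list but known as a STAT5 target too, was also higher.

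**Figure D4:**
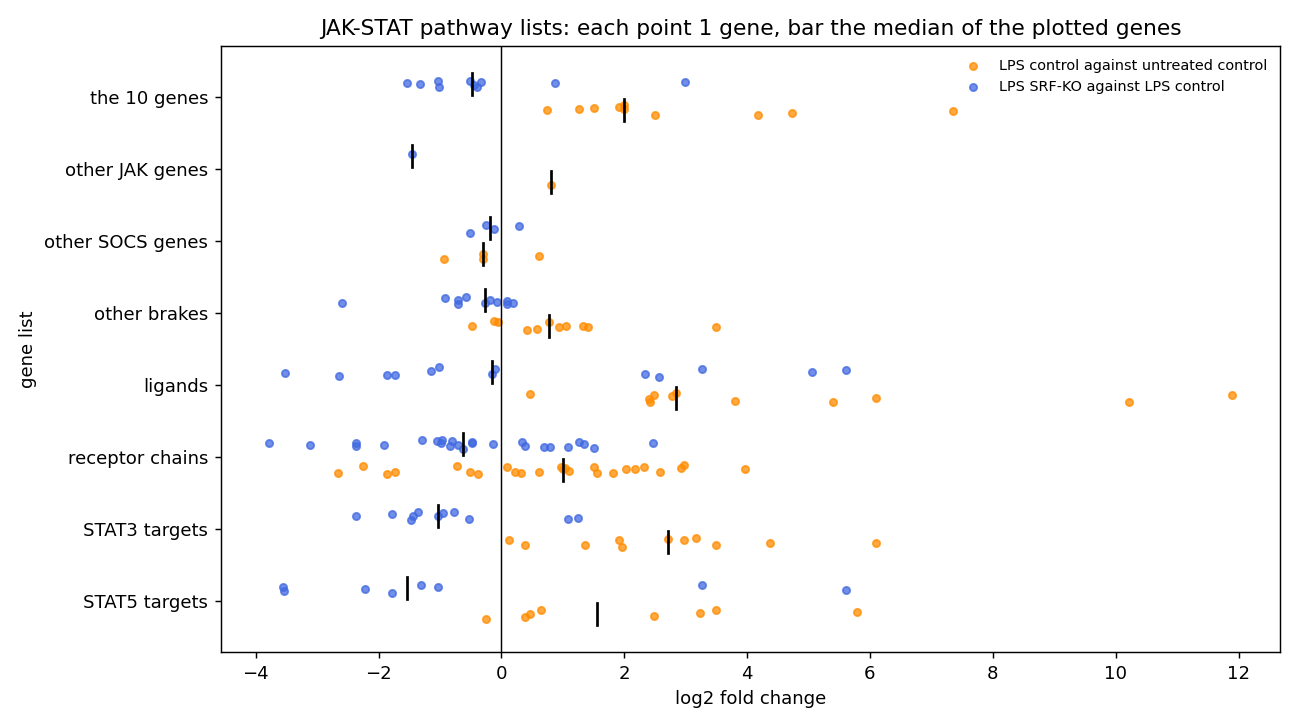
Log2 fold change of each tested gene of the 10 genes and of 7 pathway lists, for LPS control against untreated control and for LPS SRF-KO against LPS control, with bars at the medians of the plotted genes. Csf3 and Il23a, at 0 counts in untreated cells, are left out of the first comparison. Every plotted ligand lies to the right of 0 in the first comparison. In the SRF-KO comparison ligands lie on both sides, where 5 were higher and 7 lower (39.1% and 37.9% of all genes).

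Markers of other cell types moved with LPS and with genotype too. The 5 stromal and endothelial markers summed to 1.87 to 2.12 CPM in untreated control, 20.2 to 26.3 in LPS control and 28 to 30.2 in LPS SRF-KO libraries. Of these, Pdgfrb, Pecam1 and Cdh5 were tested and rose with LPS, and Col1a1 and Col3a1 were at 0 in all 3 groups. In SRF-KO cells compared with LPS control, Pdgfrb was higher (log2 0.90), and Pecam1 (-1.78) and Cdh5 (-2.23) were lower. The 5 osteoclast markers summed to 19.7 to 21.6 CPM in untreated control, 55.4 to 58.2 in LPS control and 183 to 192 in LPS SRF-KO libraries. The 4 that were tested were higher in SRF-KO cells than in LPS control (39.1% of all genes were). With LPS in control cells 2 of them rose, Acp5 (log2 1.76) and Calcr, and 2 fell, Ctsk (-0.73) and Dcstamp (-0.61). The Calcr call (adjusted p = 0.0394, edgeR) rests on 0 counts in untreated control and at most 3 over the LPS control group. The 8 neutrophil and granulocyte markers summed to 1.6 to 2.25 CPM in untreated control, 6.21 to 7.33 in LPS control and 18.6 to 20.4 in LPS SRF-KO libraries. S100a8 held most of that sum in both LPS groups, with means of 0.644, 5.105 and 16.06 CPM in the 3 groups. Camp was at 0, 1.08 and 2.60. S100a9 went the other way (0.883, 0.566 and 0.434) and was not called with LPS or between the LPS groups. Ngp, not tested, was at 0.381, 0.0446 and 0.237. Ly6g, Elane, Mpo and Retnlg were at 0 in both LPS groups. Of the 8 macrophage markers, 6 were lower and 2 higher in SRF-KO cells than in LPS control (37.9% and 39.1% of all genes). Fcgr1 (1853 CPM in LPS control and 84.2 in LPS SRF-KO) and Mertk (22 and 4.38) fell most. Itgam fell least (log2 -0.45). The 2 higher were Csf1r (2286 and 2938 CPM) and Lyz2 (8925 and 12300). The part of these differences, with LPS or with genotype, in the values of the JAK, STAT and SOCS genes was not tested.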

How the data were processed

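Per the labels' protocols, a TruSeq stranded kit was used. The build GRCm38, the aligner STAR 2.5.4b and the tools featureCounts, Trimmomatic, edgeR and bcl2fastq 2.19 appear in the submitters' processing notes, without an annotation release or a strand setting. The deposited files hold raw, whole-number read counts per Ensembl gene, 1 file per library, per the file headers. Symbols and positions came from GENCODE M21 for 22291 of 22524 genes.

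Groups came from the sample titles. Counts were fitted in R 4.3.3 with edgeR 4.0.16 (filterByExpr, 11560 genes; TMM; robust glmQLFit and glmQLFTest; 9 libraries, group as the only term). Benjamini-Hochberg adjustment was over all genes. Fold changes were log2. TMM factors were 1.18 to 1.19 in untreated control, 0.810 to 0.814 in LPS control and 1.04 in LPS SRF-KO libraries, so CPM differs from library-total CPM. Replicates differed beyond sampling noise (chi-square per degree of freedom 1.75 to 3.95), which does not show whether they are separate cultures. Each library counted as 1 in the fit. The common coefficient of variation between libraries that edgeR estimated was 3.46%. Alternatives were library totals, median-of-ratios factors, DESeq2 1.42.0, other filters, 2-group fits, a replicate block and leaving out each library. The steps were also run on simulated counts with few genes changed, equally up and down. Library composition was not shifted there, so that run cannot check the scaling between groups.

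The 10 genes and all lists were chosen with earlier results of these data known. Named genes are the 10, Srf, up to 3 genes of each pathway list with the smallest p in each of the first 2 comparisons, all genes of lists of up to 5, and the 2 nearest patterns of each SOCS gene. Other genes, such as Csf3, Il23a and the markers, are named as members of lists, and Cebpd because it was unmatched. A gene that this rule would name, and the summaries that need it, are not reported here.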

Additional observations from a re-analysis of the deposited data

How the results depend on the processing

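Of 390 recomputed fold changes (10 genes, 3 comparisons, 13 alternatives), 387 kept their side of the threshold, and the exceptions are Jak1 (1 setting) and Stat4 (2 settings) between the LPS groups, given above. The direction was kept in all but 1, Stat4 between the LPS groups with library totals (0.02, not called in either). Counts over all genes moved with library totals alone: with LPS 2428 were higher and 7835 lower (4722 and 4721 with TMM), and in SRF-KO against LPS control 7059 and 2434 (4521 and 4384). The 10 genes then stayed at 10 higher with LPS. Leaving out 1 library gave 10 to 10 of the 10 genes higher and 0 to 0 lower with LPS and in SRF-KO against untreated control, and 2 to 2 higher and 7 to 8 lower in SRF-KO against LPS control. Over all genes it gave 4579 to 4665 higher and 4577 to 4680 lower, 4347 to 4447 and 4201 to 4294, and 4401 to 4537 and 4493 to 4564 in LPS control against untreated, SRF-KO against LPS control and SRF-KO against untreated. With the longest transcript as the length, the highest levels were Jak1 at 36.4 CPM per kb in untreated control (24.7 with all exons) and Socs3 at 590.1 in LPS control (521) and 287.7 in LPS SRF-KO cells (254). Of the 30 per-length levels (10 genes in 3 groups), 23 moved by more than the SD between replicates with that length. Of the counts over pathway lists, 17 moved by over 1.5 times. Same-numbered replicates deviated together with correlations of -0.0746 to 0.0971, so the numbers were not taken as pairs. With a replicate block the 10 genes gave 10 higher with LPS, and 2 higher and 7 lower in SRF-KO against LPS control, as without it. Depth limits Socs2, Stat4 and Cish, with 8 to 79 counts per library outside the 405 to 554 of Cish in SRF-KO cells. The cause of these moves was not tested.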
